A study of Mus musculus with 237 samples.

Results

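Claudins and their partners at the tight junction were followed through single skin cells of mouse embryos. The 9 genes are Cldn1, Cldn3, Cldn4, Cldn6, Cldn7, Ocln, Tjp1, F11r and Cgn, out of 55335 genes in the count table, and they were chosen by name. Claudins are membrane proteins that join neighbouring cells at the tight junction, and the mix of claudins in a cell sets which ions and molecules can pass between cells. Occludin (Ocln) and the junctional adhesion molecule F11r lie in the same membrane strands or beside them, and ZO-1 (Tjp1) and cingulin (Cgn) tie the strands to the actin cytoskeleton. In mature epidermis the barrier-forming junctions lie in the upper living layers, and mice without Cldn1 lose water through the skin. Cldn3, Cldn4, Cldn6 and Cldn7 are known from simple epithelia and from early embryonic surface epithelium.

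The labels describe cells from the skin of C57BL/6N embryos at E14.5, carried by ICR surrogate mothers. There are 66 cells from 3 wild-type embryos and 171 cells from 7 Trp63 mutant embryos, in which the gene of p63 was knocked out by genome editing of zygotes. Wild-type epidermis was split from dermis with dispase before trypsin, whereas mutant embryos were put into trypsin directly. Cells positive for CD45, TER119 or CD140a (the protein of Pdgfra) were removed by sorting, and cDNA was screened by qPCR before sequencing. By the study's methods, Krt5 was used to choose libraries of wild-type keratinocytes and Krt8 to choose those of mutant keratinocytes. Both genes also enter the rule for the basal and simple states used below.

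The table names its columns by run, 1 per cell, and 16 of them could be paired with a labelled cell. All 16 come from wild-type embryo WT01, with 11 cells labelled basal layer, 4 labelled K17 high (K17 is keratin 17) and 1 labelled intermediate layer. For the other 221 columns neither embryo nor genotype was used here. All columns were placed instead by keratin and collagen levels in CPM (counts per 1000000 counts of the column), with no use of the 9 genes. Suprabasal columns have Krt1 and Krt10 at 1000 CPM or more, and basal columns have Krt5 and Krt14 at 300 CPM or more with Krt8 under 100. Simple columns have Krt8 and Krt18 at 100 CPM or more with Krt5 and Krt14 under 100, and mesenchymal columns have Col1a1 and Col3a1 at 100 CPM or more. There were 8 suprabasal, 54 basal, 66 simple and 79 mesenchymal columns, and 33 columns met no rule. In these counts 2 columns are both suprabasal and basal, and 1 column is both simple and mesenchymal. The 15 basal layer and K17 high cells met the basal rule, and the intermediate layer cell met the suprabasal rule. The paper assigned cell subtypes by hand from marker genes, so label and rule are not independent. By the labels, all 70 fibroblasts and all 50 surface ectoderm remnant cells are mutant, and so are 28 cells labelled K5 K14high. All 70 fibroblasts come from 1 mutant embryo. All 45 basal layer, 8 K17 high and 8 intermediate layer cells are wild type. A state can hold cells of both genotypes, and the genotype make-up of each state is not known here. Differences between states therefore cannot be told apart from differences in genotype, embryo, preparation and library choice. Every state is 1 pool of columns and the paired cells come from 1 embryo, so no test was possible and values are given with their range over columns.

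Total counts ranged from 2701500 to 19197138 per column with a median of 6938031. Of 10 basal markers, 10 were at 10 CPM or more in the basal pool, against 6 in the suprabasal, 6 in the simple and 3 in the mesenchymal pool. Of 10 suprabasal markers, 9 were at 10 CPM or more in the suprabasal pool, with Ivl at 0, against 6 in the basal and 2 in the simple pool. All 8 simple epithelial markers were at 10 CPM or more in the simple pool, against 6 in the basal, 4 in the suprabasal and 1 in the mesenchymal pool. Of 7 periderm markers, 5 were at 10 CPM or more in the suprabasal, 4 in the basal, 6 in the simple and 0 in the mesenchymal pool. Of 9 mesenchymal markers, 6 were at 10 CPM or more in the simple pool, against 3 in the basal, 3 in the suprabasal and 9 in the mesenchymal pool. Their sum ranged from 4.01 to 9305 CPM over simple columns, against 3079 to 135100 CPM over mesenchymal columns. The part of mesenchymal RNA in the simple columns was not tested. No endothelial marker, including Cldn5, reached 10 CPM in any of the 4 pools, and no immune marker did. In single columns the endothelial markers summed to at most 554.3 CPM (mesenchymal) and 229.9 CPM (simple). Of 4 neuron and 4 Merkel markers, 1 of each reached 10 CPM in the mesenchymal pool, and none did in the other pools.

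The promoters of the 5 claudins and of Cgn are shown first, since 4 of these claudins moved together over the columns and Cldn1 did not. RefSeq windows of 300 bases, 250 before the start and 50 after it, were read on the strand of the gene from build GRCm38.p6, and all 9 genes had at least 1 window. Capitals mark matches on either strand to CAGGTG (an E-box that Snail and Zeb factors can bind), to GCCNNNGGC (AP-2 type) or to AACCGGTT and AACCTGTT (Grainyhead type).
Cldn3, chr5:134985964-134986263, plus strand: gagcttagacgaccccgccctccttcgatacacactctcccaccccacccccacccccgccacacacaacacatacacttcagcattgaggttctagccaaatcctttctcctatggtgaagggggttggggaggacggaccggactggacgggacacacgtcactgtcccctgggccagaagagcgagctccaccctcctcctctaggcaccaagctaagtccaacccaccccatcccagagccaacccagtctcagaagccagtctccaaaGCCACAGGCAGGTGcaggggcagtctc
Cldn4, chr5:134946885-134947184, minus strand: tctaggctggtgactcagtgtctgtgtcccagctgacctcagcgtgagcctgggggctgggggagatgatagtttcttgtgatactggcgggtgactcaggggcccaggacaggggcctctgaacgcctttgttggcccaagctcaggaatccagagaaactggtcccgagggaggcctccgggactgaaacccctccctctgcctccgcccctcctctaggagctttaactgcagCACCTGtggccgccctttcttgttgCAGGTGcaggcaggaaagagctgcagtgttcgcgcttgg
Cldn6, chr17:23679115-23679414, plus strand: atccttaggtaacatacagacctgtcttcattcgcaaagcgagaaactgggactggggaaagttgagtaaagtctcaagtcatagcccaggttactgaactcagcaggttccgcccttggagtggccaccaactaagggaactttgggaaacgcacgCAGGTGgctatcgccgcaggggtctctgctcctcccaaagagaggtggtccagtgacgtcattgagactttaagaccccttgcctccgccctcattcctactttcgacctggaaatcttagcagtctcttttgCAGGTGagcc
Cldn7, chr11:69965171-69965470, plus strand: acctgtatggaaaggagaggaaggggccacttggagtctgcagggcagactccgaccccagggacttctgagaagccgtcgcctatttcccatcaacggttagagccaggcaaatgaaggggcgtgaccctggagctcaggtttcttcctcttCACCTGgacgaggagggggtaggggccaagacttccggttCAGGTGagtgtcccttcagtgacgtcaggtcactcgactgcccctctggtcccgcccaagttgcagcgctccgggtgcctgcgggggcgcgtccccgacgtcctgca
Cldn1, chr16:26371790-26372089, minus strand: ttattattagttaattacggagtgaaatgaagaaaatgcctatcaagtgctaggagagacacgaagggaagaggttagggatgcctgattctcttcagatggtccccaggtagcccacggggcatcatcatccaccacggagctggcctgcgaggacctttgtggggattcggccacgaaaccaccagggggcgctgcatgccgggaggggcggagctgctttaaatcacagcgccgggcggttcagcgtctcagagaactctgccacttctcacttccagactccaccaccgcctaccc
Cgn, chr3:94786433-94786732, minus strand: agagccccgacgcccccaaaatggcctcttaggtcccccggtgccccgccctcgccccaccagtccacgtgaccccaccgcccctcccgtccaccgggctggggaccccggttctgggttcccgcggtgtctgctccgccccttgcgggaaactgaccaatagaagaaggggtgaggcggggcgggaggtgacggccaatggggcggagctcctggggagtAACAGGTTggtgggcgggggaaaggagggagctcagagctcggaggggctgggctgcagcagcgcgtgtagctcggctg
In the Cldn3 window the AP-2 type match and the E-box share 1 base and run together in the capitals.

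Windows of Cldn4 and Cldn6 held 2 E-boxes each, and that of Cldn3 held 1. The printed Cldn7 window held 2, and its other window, chr11:69964529-69964828, held none of the 4 motifs. Windows of Ocln and F11r also held the E-box, which makes 6 of 9 genes over 11 windows, with 2 windows each for Ocln and Cldn7. The E-box was in 20.2% of the 32851 promoter windows of the RefSeq table, a share of windows and not of genes. The Cldn1 window held none of the 4 motifs. The AP-2 type motif was in 4 of 9 genes, Cldn3, Ocln, Tjp1 and F11r, and in 16.6% of all windows. Tjp1 held that motif alone. Cgn was the only one of the 9 genes with a Grainyhead type motif, AACCTGTT on its opposite strand, found in 0.962% of all windows. AACCGGTT was in 0.146% of all windows and in none of the 9 genes. A match describes letters and is not evidence of binding.

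In the GENCODE annotation of GRCm38, Cldn3 lies on chromosome 5 at 134986214 to 134987472 on the plus strand, and Cldn4 lies 39279 bases away from it, at 134945119 to 134946934 on the minus strand. Each has 1 exon. Cldn6 lies on chromosome 17 at 23679249 to 23682446, 137 bases from Cldn9. Cldn7 lies on chromosome 11 at 69964779 to 69967885 and Cldn1 on chromosome 16 at 26356642 to 26371841. Cldn3 shares 40 exon bases with an antisense gene, Wbscr25, and strand use in counting is not given in the sources used here.

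Cldn3, Cldn4, Cldn6 and Cldn7 were all high in most simple columns. In basal and suprabasal columns Cldn4 and Cldn1 were the claudins most often at 10 CPM or more, and in mesenchymal columns no claudin of the 5 but Cldn1 was. The plot of members by state shows each column.

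**Figure D1:**
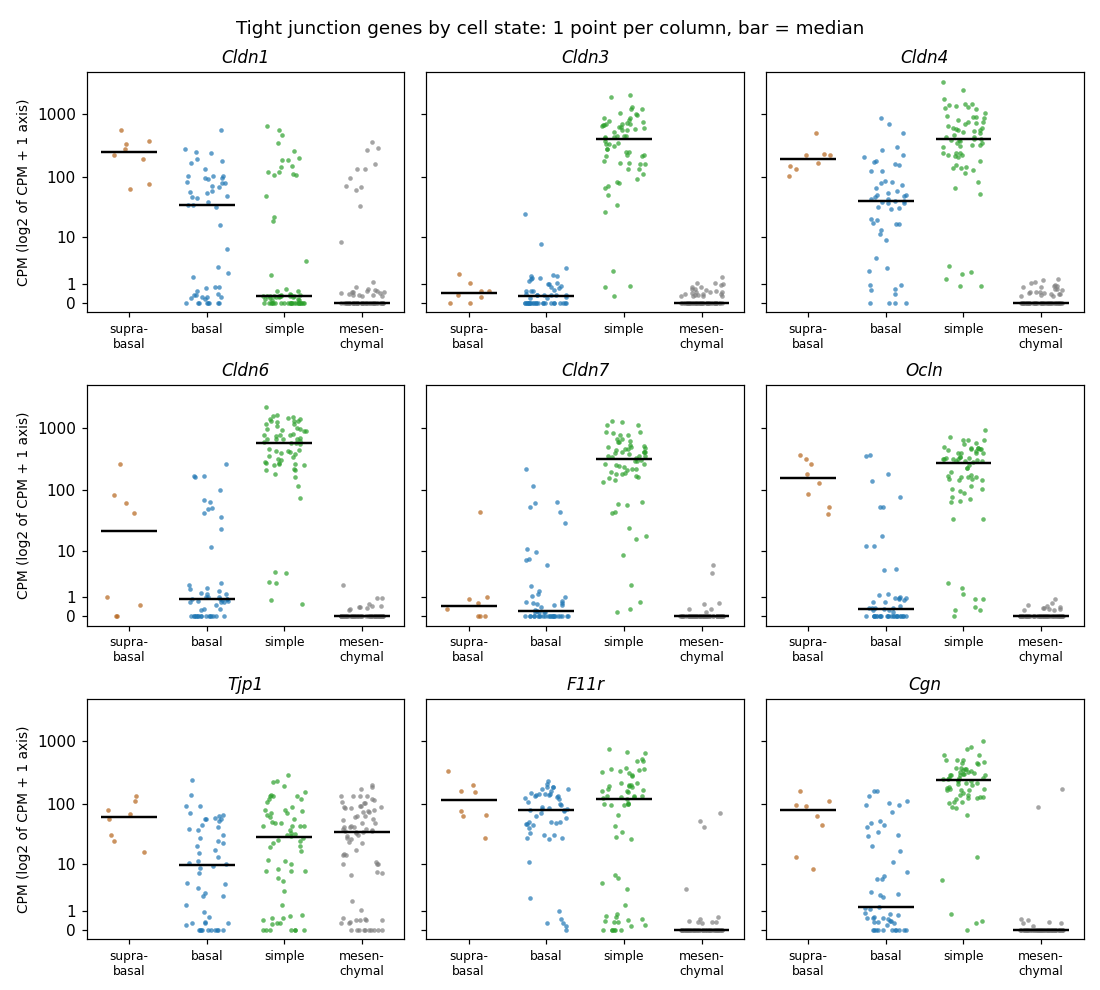
CPM of each of the 9 genes, on an axis of log2 of CPM + 1, in the suprabasal (8), basal (54), simple (66) and mesenchymal (79) columns. Each point is a column and each bar the median. Cldn3 is near 0 outside the simple columns, where its median is 394.7 CPM, while Tjp1 spreads over all 4 states.

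Cldn3, a claudin of simple epithelia, ranged from 0.280 to 2036 CPM in simple columns with a median of 394.7. It ranged from 0 to 24.8 with a median of 0.272 in basal columns, from 0 to 1.81 in suprabasal columns and from 0 to 1.54 in mesenchymal columns. Of 66 simple columns, 62 were above the highest basal column, so these groups hardly overlapped. The pooled level was 491 CPM in simple columns (95% Poisson interval 488.8 to 492.5) and 1.26 CPM in basal columns (1.16 to 1.37), of which 56.7% of the counts came from 1 column. Without that column the basal level was 0.561 CPM. These intervals cover counting error only, because reads amplified from 1 molecule are counted separately here.

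Cldn6, a claudin known from embryonic epithelia, had the highest pooled simple level of the 5 claudins before correction for length, 640.4 CPM (638.3 to 642.5). Simple columns ranged from 0.561 to 2096 CPM with a median of 576, and 60 of 66 were at 10 CPM or more. In basal columns the median was 0.874 CPM, yet 13 of 54 were at 10 CPM or more and the highest reached 262.4. In suprabasal columns Cldn6 was either near 0 or clearly present, with values of 0, 0, 0.522, 1.03, 43.03, 61.9, 82.7 and 262.4 CPM. The highest of these held 63.6% of the suprabasal counts and also met the basal rule. The pooled suprabasal level was 56.9 CPM with this column and 24 without it.

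Cldn7 ranged from 0.161 to 1290 CPM in simple columns, with a median of 317.9 and 61 of 66 columns at 10 CPM or more. In basal columns it was at 10 CPM or more in 8 of 54, with a median of 0.187 and a highest value of 222.1. Of the simple columns, 41 were above that highest basal value. In suprabasal columns 7 of 8 values were at 1.03 CPM or less and 1 was 43.7. That column held 94.5% of the counts, and the pooled level moved from 6.39 to 0.409 CPM without it.

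Cldn4 was the most widely present claudin of the epithelial columns. It was at 10 CPM or more in 60 of 66 simple, 41 of 54 basal and 8 of 8 suprabasal columns, and in 0 of 79 mesenchymal columns, where the highest value was 1.41. Simple columns had a median of 399.6 CPM (0.805 to 3224) and basal columns a median of 40.4 (0 to 853.6). The groups overlapped widely, with 15 of 66 simple columns above the highest basal column. The 8 suprabasal columns lay between 103.3 and 499.5 CPM, all above the basal median.

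Cldn1, the claudin of the epidermal water barrier, went another way. It was highest in suprabasal columns, with values of 62.2, 76.1, 192.4, 226.3, 278.9, 334.5, 366.6 and 561.1 CPM. All 8 were above the basal median of 35.1 and the simple median of 0.271, and 1 was above the highest basal column. The pooled levels were 252.5 CPM in suprabasal, 63.1 in basal, 56.7 in simple and 22.7 in mesenchymal columns. Basal and simple pools were close, but their columns were not alike, since 30 of 54 basal and 18 of 66 simple columns were at 10 CPM or more.

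In simple columns Cldn1 split the columns apart from the other claudins. The 18 columns with Cldn1 at 10 CPM or more ranged from 18.99 to 655.4 CPM, and the other 48 ranged from 0 to 3.66. Cldn3 had medians of 339.3 and 442.1 CPM in these 18 and 48 columns, Cldn6 of 543.7 and 576, and Cldn7 of 311 and 325.8. Ocln had medians of 328.5 and 164.3 CPM and Cldn4 of 715 and 390.2. For all 5 genes the ranges of both sets overlapped over most of their length.

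Cldn1 was also the only claudin of the 5 at 10 CPM or more in mesenchymal columns, in 11 of 79, with values from 32.9 to 356.9 CPM. In these 11 columns Krt5 and Krt14 had 0 counts, and Krt8 and Krt18 reached at most 1.19 and 1.03 CPM. Col1a1 ranged from 4790 to 26130 CPM and Vim from 349.9 to 1828, Cdh5 (an endothelial cadherin) was at 0 in all 11, and Epcam was at 33.9 CPM or less.

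Ocln, the membrane partner of the claudins, was high in suprabasal and in simple columns. The 8 suprabasal columns had 41.03, 54.2, 87.6, 128.1, 180.8, 263.9, 320.1 and 364.1 CPM, all above the basal median of 0.320. Simple columns ranged from 0 to 910.2 CPM with a median of 269.7, and 57 of 66 were at 10 CPM or more. Only 10 of 54 basal columns were, and in those Ocln reached 364.1 CPM. The highest suprabasal and the highest basal value belong to the same column, which met both rules. No mesenchymal column was at 1 CPM or more.

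Cgn, the cytoskeletal linker cingulin, ranged from 0 to 1015 CPM in simple columns with a median of 238.9, and 46 of 66 were above the highest basal column. Suprabasal columns had 8.08, 13.3, 45.1, 63.8, 92.1, 96.4, 111.7 and 160.5 CPM, and basal columns a median of 1.25 with a highest value of 160.5. Cgn is the least certain of the 9 counts, since 17.2% of the 50-base stretches of its transcripts also occur in other genes, and 42.3% of its nonzero values were not whole numbers. In mesenchymal columns 64% of its counts came from 1 column, and the pooled level of 4.06 CPM was 1.48 without it.

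F11r, an immunoglobulin-type adhesion molecule, was present in most epithelial columns. It was at 10 CPM or more in 8 of 8 suprabasal columns (28.2 to 333.2 CPM), 47 of 54 basal columns (median 78.7) and 45 of 66 simple columns (median 120). Only 3 of 79 mesenchymal columns reached 10 CPM, and the highest was 70.3. Tjp1, the scaffold ZO-1, overlapped widely between simple and mesenchymal columns. Its medians were 61.8 CPM in suprabasal, 9.73 in basal, 29.2 in simple and 34.4 in mesenchymal columns, and 52 of 79 mesenchymal columns were at 10 CPM or more. Its highest pooled state, suprabasal, was 2.71 times its lowest, basal.

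Compared per kilobase of exon, which allows levels to be set between genes, the order differed with the state. In the simple pool Cldn3 (389.8 CPM per kb) and Cldn6 (372.1) were followed by Cldn4 (305.1) and Cldn7 (201.9), then by Ocln (62.9), F11r (59.7), Cgn (43.8), Cldn1 (11.7) and Tjp1 (6.63). The ranges from the lower to the upper quartile of the columns overlapped between neighbours from Cldn3 to Cldn7 and from Ocln to Cgn, so these orders were within the spread. In the basal pool Cldn4 (57.4) and F11r (31.1) came first, and in the suprabasal pool Cldn4 (118.1), F11r (56.6), Cldn1 (52.2) and Ocln (45.3) did. The 5 claudins summed to 207 CPM per kb in suprabasal, 91.4 in basal, 1281 in simple and 5.03 in mesenchymal pools. Cldn4 made up 57.1%, 62.8% and 23.8% of that sum in suprabasal, basal and simple pools, Cldn1 made up 25.2%, 14.3% and 0.914%, and Cldn6 made up 15.97%, 15.6% and 29.1%. In the simple pool Cldn3 took 30.4%.

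The number of claudins was also counted in each column. Of 66 simple columns, 43 had 4 of the 5 claudins at 10 CPM or more and 16 had all 5. The set Cldn3, Cldn4, Cldn6 and Cldn7 without Cldn1 accounted for 42 of these. In basal columns the commonest sets were Cldn1 with Cldn4 (15 of 54) and Cldn4 alone (11), and 5 columns had none. All 8 suprabasal columns had Cldn1 and Cldn4, with Cldn6 in 4 and Cldn7 in 1. No claudin was at 10 CPM or more in 68 of 79 mesenchymal columns.

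**Figure D2:**
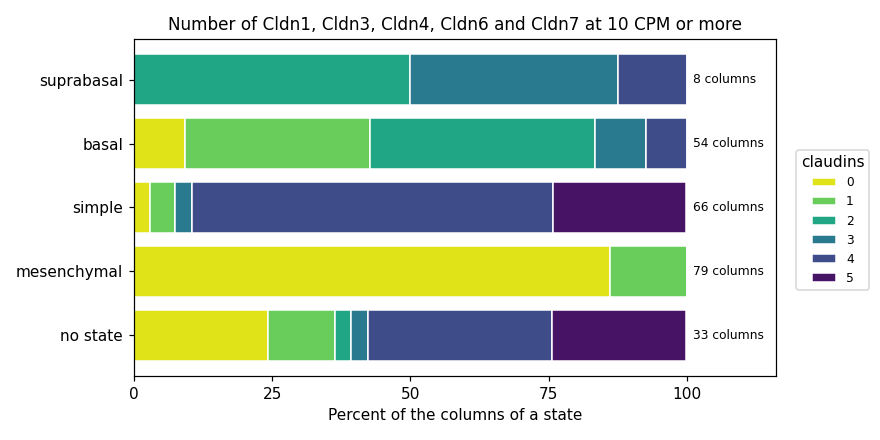
Percent of the columns of each state (horizontal axis) with 0 to 5 of the 5 claudins at 10 CPM or more, with the number of columns at the right. Simple columns hold mostly 4 or 5 claudins, basal columns 1 or 2, and mesenchymal columns 0.

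The 7 simple columns with fewer than 4 claudins were not alike. The column that was also mesenchymal had none, with Cldn3, Cldn4, Cldn6 and Cldn7 at 0.841 CPM or less, Col3a1 at 3542 CPM and Epcam at 2.52, but Tjp1 at 131.9 and Cgn at 174.5. Another column had none with Krt8 at 2201 CPM and Epcam at 13.03. Another had Cldn1 at 18.99 CPM and Ocln at 290, with Epcam at 382.4 and the other 4 claudins at 0.805 or less. Cldn3 alone was present at 744.7 CPM in 1 column, and Cldn6 alone at 280.4 CPM in 1 column. The last pair each had 3, missing Cldn6 (3.98 CPM) in one and Cldn4 (1.39 CPM) in the other. These columns had total counts from 2874152 to 15337033, and the lowest of these is the shallowest of all simple columns.

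At the other end, 4 of 54 basal columns had 4 claudins. One of them held the highest basal Cldn3, 24.8 CPM, with Krt8 at 3.76 CPM and Krt14 at 5199. Another was the column that met both the basal and the suprabasal rule, with Krt1 at 1437 CPM and Krt17 at 6297. All 4 were columns with no pairing to a label.

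Of the 33 columns in no state, 18 had Krt8 and Krt18 at 100 CPM or more together with Krt5 or Krt14 at 100 CPM or more. Krt5 had a median of 199.4 CPM in them and Krt14 of 35.1, with Krt14 at 100 CPM or more in 5 of 18. These columns had the claudins of the simple columns, with Cldn3 at 10 CPM or more in 17 of 18 (median 407.8) and Cldn6 in 16 (median 752.3). Cldn7 was at that level in 15 (median 438.2) and Cldn4 in 17 (median 563.7).

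Across all columns, genes were ranked by the correlation of log2(CPM + 1) with each claudin, among 10432 genes with a mean of at least 10 CPM. The columns share preparation, embryos and the choice of libraries, so these values are descriptions. Nearest to Cldn3 were Krt8 (r = 0.91), Cldn6 (0.89), Krt18 (0.88), Cldn7 (0.88) and Gabrp (0.81). Cldn6 and Cldn7 had both keratins, Cldn3 and each other as their first 4, followed by Cgn (0.82) for Cldn6 and Upk3bl (0.81) for Cldn7. Krt8 and Krt18 define the simple state, and by the study's methods Krt8 was used to choose libraries of mutant keratinocytes. Not all libraries were positive for it, since Krt8 was at 0 in 55 of 79 mesenchymal columns and 70 mutant cells are labelled fibroblast. Genes of epithelia were among the nearest to Cldn4, with Epcam (0.85), Cdh1 (0.84), Spint1 (0.84) and Esrp2 (0.83). Cldn1 had no near match, with Sytl1 (0.50), Krtdap (0.50), Dmkn (0.48), Smagp (0.46) and Perp (0.44), among which Krtdap and Dmkn are known from differentiating keratinocytes.

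Within the 66 simple columns alone, Cldn3 kept r = 0.72 with Cldn4, 0.68 with Cldn7 and 0.59 with Cldn6, and Cldn6 had 0.69 with Cldn7. Cldn1 had r between -0.03 and 0.17 with these 4 genes. Some simple columns were near 0 in several genes, with Cldn3 at 0.280, 0.782, 0.805 and 2.17 CPM. In the same order Cldn4 was at 0.841, 2.09, 0.805 and 1.86 CPM in these columns. How far such columns set the values of r was not tested. Correlation with the log2 total count lay between -0.10 and 0.09 for the 9 genes in simple columns. Within basal columns the highest value between any of the 9 genes was 0.45, between Cldn7 and Ocln. Cldn3 and its neighbour Cldn4 were both at 10 CPM or more in 81 columns, of 84 with Cldn3 and 130 with Cldn4. Cldn9, the neighbour of Cldn6, was at 10 CPM or more in 3 columns, against 95 for Cldn6, and all 3 had both.

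**Figure D3:**
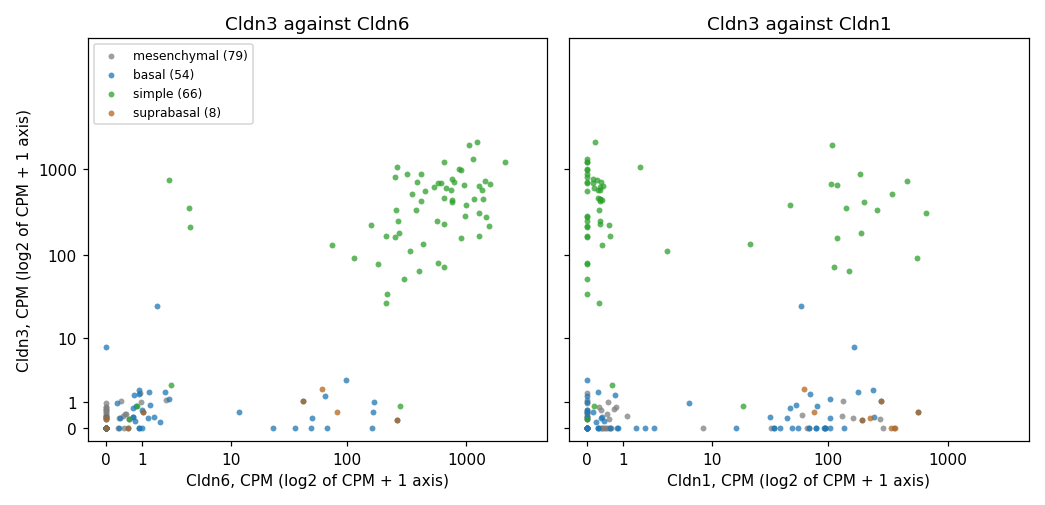
Cldn3 against Cldn6 (left) and against Cldn1 (right), in CPM on axes of log2 of CPM + 1, with 1 point per column coloured by state. Simple columns are high in both Cldn3 and Cldn6, while Cldn1 is spread from 0 to 655.4 CPM among simple columns of similar Cldn3.

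The 9 genes were set against all genes by log2 ratios of the pooled columns with 1 CPM added, among genes at 10 CPM or more in 1 of both pools, and a gene was counted where it differed at least 4-fold. The comparisons with basal share the basal columns and are not independent. In simple against basal columns, 5.77% of 10762 genes were at least 4-fold higher and 3.58% lower, with a median log2 ratio of 0.04. All 9 genes passed the filter, Cldn3 through the simple pool alone, and 6 were at least 4-fold higher. Their log2 ratios were 7.77 for Cldn3, 5.03 for Cldn7, 4.65 for Cldn6, 3.37 for Ocln, 3.32 for Cgn and 2.40 for Cldn4. Tjp1 (0.99), F11r (0.93) and Cldn1 (-0.15) lay under the limit.

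In suprabasal against basal columns, 4.5% of genes were at least 4-fold higher and 10.7% lower. Ocln, at a log2 ratio of 2.90, was the 1 member past the limit, of 8 that passed the filter. Cldn1 stood just under it at 1.98, and between 2.0 and 2.29 under 6 of the other settings. The other ratios were 1.43 for Cgn, 1.40 for Tjp1, 1.18 for Cldn6, 1.03 for Cldn4, 0.85 for F11r and -0.71 for Cldn7. Without the columns that met 2 rules, Cldn7 was at -3.12 and Cldn6 at 0.13, and with the thresholds of the rule doubled Cldn6 was at -0.08. Cldn3 was under 10 CPM in both pools.

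In mesenchymal against basal columns, 9.63% of genes were at least 4-fold higher and 6.33% lower. Of 8 members that passed the filter, 6 through the basal pool alone, 6 were lower, from -6.49 for Cldn4 to -2.39 for Cgn. With the thresholds of the rule halved, Cldn4 was at -1.22, Cldn6 at -0.92, Cldn7 at -0.72, Ocln at -1.08 and Cgn at -1.24, so that of these 6 only F11r stayed past the limit. Cldn1 was at -1.43 and Tjp1 at 0.86. In simple against mesenchymal columns, 9.17% of genes were at least 4-fold higher and 8.85% lower, and 7 members were higher, by 5.70 for F11r to 9.22 for Cldn6 on the log2 scale. All 7 passed the filter through the simple pool alone, and 36 counts stand behind the mesenchymal level of Cldn6. With thresholds halved the 7 were still past the limit, from 3.69 for Cldn4 to 5.83 for Cldn7, with Cldn6 at 5.65, Ocln at 4.53 and Cldn3 at 4.19. Cldn1 (1.28) and Tjp1 (0.13) were not past the limit.

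The rest of the tight junction was read from a list of 68 genes, of which 41 were at 10 CPM or more in at least 1 state. Of 32 claudin genes, 8 were, and 11 had no count in any of the 4 states. Beside the 5 members these were Cldn8, Cldn23 and Cldn12. Cldn8 followed the simple claudins, with a median of 211.6 CPM in simple columns, 54 of 66 at 10 CPM or more, and a median of 0.353 in basal columns. Cldn23 was at 10 CPM or more in 15 of 66 simple columns with a highest value of 869.8, and in 0 of 54 basal columns. It had 0 counts in the 4 K17 high cells. Cldn12 was at 10 CPM or more in part of every state, 4 of 8 suprabasal, 20 of 54 basal, 13 of 66 simple and 25 of 79 mesenchymal columns.

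In simple against basal columns, 40 genes of the list passed the filter, 17 were at least 4-fold higher and 1 lower, with a median of 1.25. Over all genes, 5.77% were higher and 3.58% lower. Of the 17, Cldn3, Cldn23, Marveld2, Marveld3, Ildr1, Prkcz, Crb3 and Amot passed the filter through the simple pool alone. The tricellular protein Marveld2 (3.77) and Marveld3 (3.83) were higher with Ocln, and the scaffold Tjp3 (3.95) with Cgn. Among polarity proteins, Prkcz (2.66), Crb3 (2.63) and Pard6b (2.15) were higher and Pard6g (-2.28) was the 1 lower gene. Pard6g was at 10 CPM or more in 54 of 54 basal columns with a median of 302.8 CPM, and had a median of 30.2 in simple columns. Pard6b and Pard6g, members of 1 family of polarity adaptors, thus differed in opposite directions. The angulin Ildr1 (2.99) and the regulator Amot (2.63) were also higher, while the angulin Lsr differed by 0.81 and Cxadr, a virus receptor of epithelial junctions, by 0.47.

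In suprabasal against basal columns, 3 of 32 genes of the list were at least 4-fold higher, Ocln, Tjp3 (2.59) and Marveld2 (2.22), against 4.5% of all genes. Marveld2 passed the filter through the suprabasal pool alone, where 3 of 8 columns were at 10 CPM or more. The 3 lower genes were the scaffolds Mpdz (-4.39), Cgnl1 (-3.47) and Tjap1 (-3.11), and 3 of 32 is near the 10.7% of all genes that were lower. All 3 passed the filter through the basal pool alone. Mpdz had a median of 103.1 CPM in basal columns and was at 10 CPM or more in 1 of 8 suprabasal columns. In mesenchymal against basal columns, 14 of 33 genes of the list were lower, against 6.33% of all genes. All 14 passed the filter through the basal pool alone, and the number became 4 with thresholds halved. There were 2 higher genes, against 4 with thresholds halved, Jam3 (4.20), an adhesion molecule related to F11r, and Amot (2.72). Both passed the filter through the mesenchymal pool alone, and 9.63% of all genes were higher. Jam3 had a median of 36.7 CPM in mesenchymal columns and 0 in the other 3 states.

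**Figure D4:**
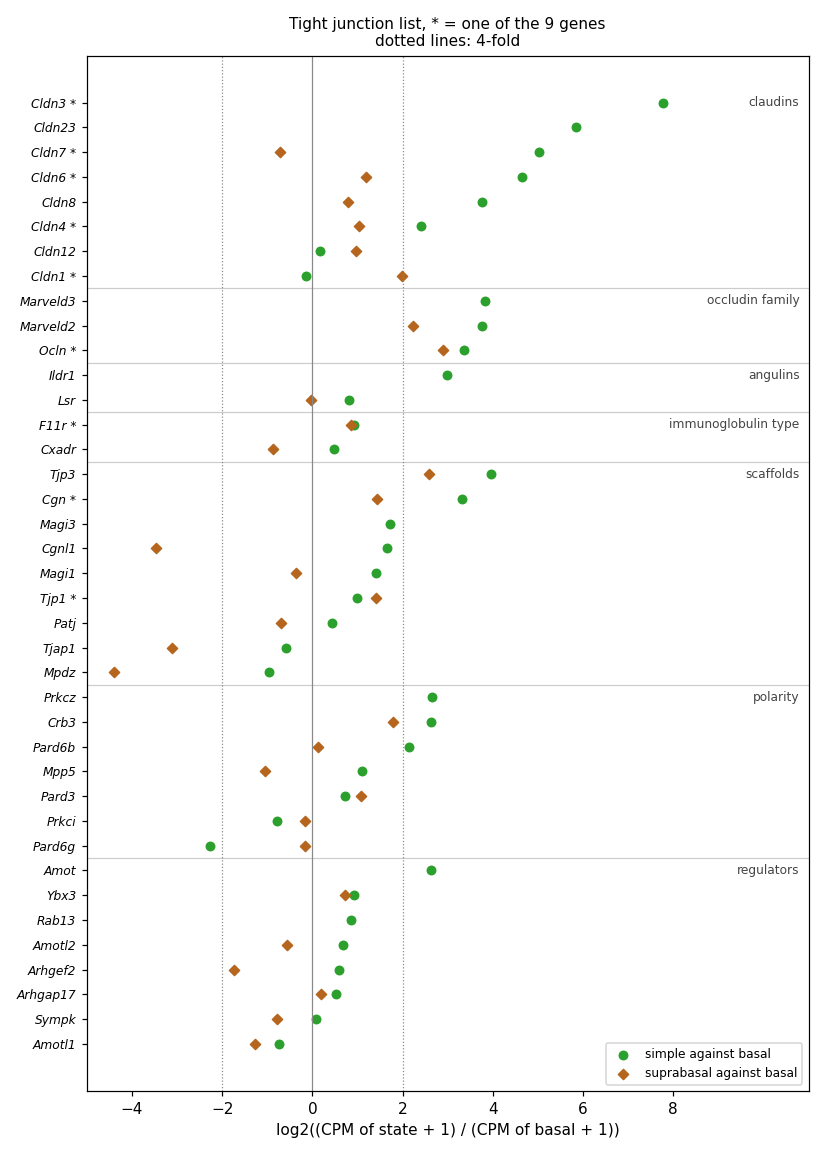
Log2 ratio of pooled CPM + 1 (horizontal axis) for tight junction genes at 10 CPM or more in 1 of the pools compared, for simple against basal columns (circles) and suprabasal against basal columns (diamonds), in groups by role. Most claudins and occludin family genes lie right of the 4-fold line in simple columns, and 3 genes lie left of the lower line in suprabasal columns.

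Epcam and 5 other genes known to act on claudins or on the epithelial programme were read beside them. Epcam, a membrane protein that binds claudins, had medians of 204.6 CPM in suprabasal, 359.7 in basal, 1152 in simple and 0 in mesenchymal columns. The protease matriptase (St14), which cleaves Epcam, had pooled levels of 131.7, 107.3, 206.4 and 0.0376 CPM in the same order, and its inhibitor Spint1 of 132.6, 78.3, 303.7 and 0.0543 CPM. Grhl2, a Grainyhead-like factor of epithelia, differed little between the epithelial pools, with 63.8, 86.9 and 99.9 CPM. Grhl3, its relative in the barrier-forming epidermis, was at 597.8, 92.2 and 304.5 CPM. Its medians were 568.4 CPM in suprabasal (200.6 to 967.5), 1.27 in basal (0 to 851.1) and 212.8 in simple columns (0.417 to 1840). In basal columns 18 of 54 were at 10 CPM or more. Trp63 was at 145.3, 552.9 and 196.5 CPM in suprabasal, basal and simple pools. Its medians were 191.5 CPM in suprabasal (3.27 to 272.6), 498.5 in basal (165.9 to 1288) and 80.7 in simple columns (0.251 to 3378).

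The labelled cells of embryo WT01 gave the same genes by the study's own labels, and the plot of labelled cells shows every value. In the 11 basal layer cells Cldn4 ranged from 0 to 65.6 CPM with a median of 30.2, and Cldn1 from 0.222 to 135 with a median of 35.03. F11r ranged from 0.254 to 209.8 CPM (median 50.2), Tjp1 from 0 to 45.4 (median 9.41) and Cgn from 0 to 132.3 (median 2.28). Cldn6 was at 10 CPM or more in 2 of 11 cells, at 23.6 and 68.7 CPM. Cldn3 and Cldn7 had 0 counts in all 11 cells, which allows a pooled level of up to 0.0342 CPM, and Ocln had 2 counts in 1 cell.

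The 4 K17 high cells had Cldn4 at 13.1, 20.2, 161.6 and 19.5 CPM and F11r at 77, 136.5, 79.25 and 134.9. All 4 F11r values lay within the range of the basal layer cells, and 1 Cldn4 value lay above it. Cldn1 was at 2.63, 0, 0.223 and 166.6 CPM, so that 1 cell was above all basal layer cells and 3 were near or at 0. Without that cell the log2 ratio of Cldn1 moved from -0.26 to -4.60. Cldn3 was found only in that same cell, at 7.57 CPM. Cldn7 and Ocln had 0 counts in all 4 cells, which allows up to 0.103 CPM.

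In K17 high against basal layer cells, 5.57% of 10601 genes were at least 4-fold higher and 6.80% lower. Of 5 members that passed the filter 1 was lower, Cgn at -3.24, and it passed through the basal layer cells alone, mostly through 2 of 11 cells at 132.3 and 95.37 CPM. It had 7.29, 0, 0.334 and 0 CPM in the K17 high cells. Of 30 list genes that passed, 0 were higher and 4 lower, Cgn, Pard6b (-3.97), Amot (-3.59) and Amotl2 (-2.49). Pard6b and Amot also passed through the basal layer cells alone. Cldn4 (1.08), F11r (0.41), Cldn1 (-0.26) and Tjp1 (-0.33) were not past the limit. Without K17 high cell 3, Cldn4 was at -0.68, and Cldn1 and Tjp1 also changed sign when single cells were left out.

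The single intermediate layer cell had Cldn1 at 334.5 CPM, Cldn4 at 103.3, Ocln at 263.9, Tjp1 at 78.6, F11r at 195.8 and Cgn at 63.8. Cldn1, Ocln and Tjp1 were above all 15 other labelled cells, and Cldn4 was above all 11 basal layer cells. For how many of all genes the intermediate layer cell was the highest was not counted. Whether these ranks are unusual therefore cannot be told. Cldn3, Cldn6 and Cldn7 had 0 counts in this cell, which allows up to 0.364 CPM each.

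**Figure D5:**
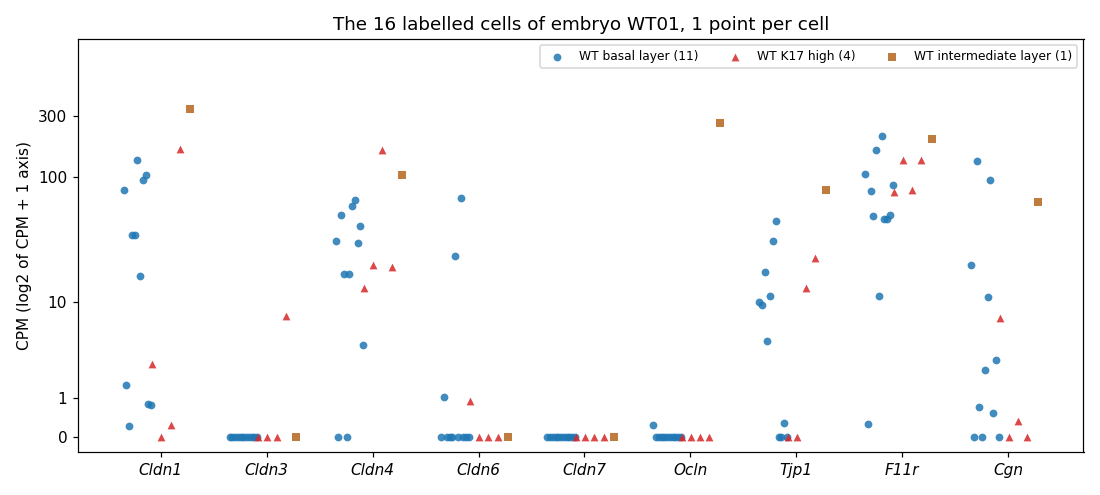
CPM of the 9 genes, on an axis of log2 of CPM + 1, in the 16 labelled cells of embryo WT01, with circles for 11 basal layer cells, triangles for 4 K17 high cells and the square for the intermediate layer cell. Cldn7 is at 0 in every cell, and Ocln is high only in the intermediate layer cell, at 263.9 CPM.

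The labelled cells did not cover the range of the basal columns. Of the 54 basal columns, 15 are labelled and 39 are not. Cldn7 was at 10 CPM or more in 0 of 15 and 8 of 39, Ocln in 0 and 10, and Cldn6 in 2 and 11. Values above 0 but under 1 CPM were also uneven, and Cldn3 had such a value in 0 of 15 labelled and 19 of 39 other basal columns. The pooled basal level without the labelled cells was 33.2 CPM for Ocln and 14.8 for Cldn7, against 24.8 and 11.1 for all 54 columns. Embryo, genotype and preparation of the 39 columns were not used here, and their part in this difference was not tested.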

How the data were processed

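Single cells were sorted and sequenced as SMART-Seq HT and Nextera XT libraries, without molecular identifiers. The submitters' processing notes name Trimmomatic, HISAT2, DESeq2 1.36.0 and build mm10, and the study's methods give featureCounts on Ensembl release 97. Strand setting and treatment of multi-mapped reads are not given in the sources used here. The table deposited by the authors holds estimated counts, not scaled, and these were rounded to whole numbers. Symbols were matched for 55154 of 55335 Ensembl identifiers. The 221 columns that could not be paired with a sample were used only through the keratin and collagen rule.

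CPM was the rounded count over the column or pool total, with exact 95% Poisson intervals for pools. A pooled count of 0 was given the limit of 3 counts. Ratios were log2((CPM + 1)/(CPM + 1)) among genes at 10 CPM or more in 1 group, counted past 4-fold. Exon lengths came from GENCODE M21 on GRCm38, an earlier release than the one used for counting, and promoters from RefSeq. Medians, ranges and sums over cells carry no test. The method was tested on simulated data. Named genes were the 9 members, list genes at 10 CPM or more in 1 state (at most 15 by level, and those past 4-fold against basal), the 5 genes most like each claudin, and 6 genes known to act on claudins. Cldn9, Cldn12, Cxadr and genes that describe single columns were named after their values were seen. Some genes that this rule names are not reported here. The members and lists were chosen with earlier results of these data known. Alternatives were the mean of the columns' CPM, counts with fractions, other thresholds, columns of 2 states or low depth left out, another scaling, a pseudocount of 0.1 CPM, no filter, and each labelled cell left out. Of these, leaving out columns under 5000000 counts or the 16 labelled columns, and totals without CT010467.1 and globins, were chosen after seeing the data. Versions were matplotlib 3.10.9, scipy 1.17.1, pandas 2.3.3 and numpy 2.4.6, under Python 3.11.15.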

Additional observations from a re-analysis of the deposited data

Results flagged for a closer look

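In the 4 K17 high cells, 1 cell stood far from the others for 5 genes, by the gap to its nearest neighbour over the whole range, judged by Dixon's 95% critical value. The gap was 0.984 for Cldn1, where 1 cell had 166.6 CPM and the next 2.63. It was 0.952 for Cldn4, with 161.6 CPM in another cell against 20.2. It was 0.954 for Cgn, with 7.29 against 0.334 CPM, and 1.0 for Cldn3 and for Cldn6, where 1 cell had 7.57 and 0.875 CPM and the other cells 0. The critical value marks about 1 in 20 groups by chance where values are normally distributed. Single-cell CPM are skewed here with many values at 0, so how often chance marks such groups was not determined. For Cldn3 and Cldn6 a single cell above 0 gives 1.0 by construction.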

How the results depend on the processing

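Of the log2 ratios of the 9 genes under the alternatives, 657 kept their side of the 4-fold limit, 12 passed it, 6 no longer did and 11 changed sign, of which 0 were past the limit as reported. Part of the 657 could not change. Dropping the filter does not alter a ratio, and the limit of 1000000 counts or 4000 genes removed no column. Ratios between labelled cells do not depend on the state rule. Of the counts, 370 kept within 1.5 times and 29 moved, and some of the 370 likewise could not change. With the mean of the columns' CPM, list genes lower in simple against mesenchymal columns were 2, and those higher in K17 high against basal layer cells were 1. With thresholds halved, the mesenchymal state held 86 columns, and 7 members were at 10 CPM or more in it, against 2 of 9 as reported. List genes in mesenchymal against basal columns were then 4 higher and 4 lower, and 2 were lower in simple against mesenchymal columns. Under that setting Cldn4 (-1.22), Cldn6 (-0.92), Cldn7 (-0.72), Ocln (-1.08) and Cgn (-1.24) were no longer 4-fold lower in mesenchymal columns and Cldn3, under 10 CPM in both pools before, moved from -0.96 to 3.55; the cause was not tested. Without columns of 2 states, 5 list genes were lower in suprabasal columns. Median-of-ratios scaling shifted all genes by 0.30 (suprabasal), 0.39 (mesenchymal) and 0.03 (simple) on the log2 scale against basal, and by 0.09 for K17 high against basal layer cells. It gave 5 list genes higher in suprabasal and 5 in mesenchymal columns, 3 lower in simple against mesenchymal columns and 1 higher in K17 high cells. Without columns under 5000000 counts, 2 were lower in simple against mesenchymal columns. With no filter, more low genes were counted, and the shares of all genes were 2.34% higher in suprabasal, 3.38% higher and 1.91% lower in simple, and 5.19% higher and 3.17% lower in mesenchymal against basal columns, and 4.86% higher and 4.69% lower in simple against mesenchymal columns. List genes were then 6 higher in mesenchymal columns, 3 lower in simple against mesenchymal columns and 1 higher in K17 high cells. Leaving out each labelled cell in turn gave 0 to 2 list genes higher in K17 high cells. Without basal layer cell 8, Cldn6 moved from -2.92 to -1.40 in K17 high cells. Leaving out columns under 1000000 counts or 4000 genes removed no column. Gene CT010467.1, rich in rRNA reads, held 0.0519% to 31.6% of a column. No paired analysis was possible because the labelled cells come from 1 embryo and carry no shared numbers across labels.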
